A study of Mus musculus with 27 samples.

Results

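Gene expression during the induced differentiation of NFIA-expressing C2C12 cells was measured by comparing the 3 samples of NFIA cells at day 7, without forskolin, with the 3 samples at day 0, which were 6 of the 27 samples in the study. All genes of the deposited tables were carried through the comparison, and the genes named were taken from them by gene lists and by the size of their change. C2C12 is an established line of mouse myoblasts, the dividing precursors of skeletal muscle, and was obtained from ATCC. NFIA cells carried full-length NFIA, a transcription factor of the nuclear factor I family, introduced with the pMXs retroviral vector and carrying a FLAG tag. The study also held control cells, labelled only ctrl, and Δpro#3 cells, labelled deltapro3, which expressed an NFIA lacking the pro#3 domain at its C-terminal side. Each of these 3 kinds of cells was sampled 3 times at day 0, at day 7 and at day 7 with forskolin, and the forskolin samples were not used here. Day 0 cells had no differentiation treatment. Confluent cells were then kept for 48 h in medium with 10% fetal bovine serum, 1 µM rosiglitazone, 850 nM insulin, 125 nM indomethacin, 1 nM T3, 1 µM dexamethasone and 0.5 mM isobutylmethylxanthine, and afterwards in serum, insulin, T3 and rosiglitazone until day 7. Time in culture, confluence and the added compounds therefore differed together between the time points and cannot be told apart. Whether the replicates were separate infections or cultures is not given in the sources used here, so that p-values measure the spread between these samples, which may be technical.

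Myoblasts leave the cell cycle before they fuse into multinucleated fibres, and the fibres then fill with sarcomeres under the control of the MyoD family of transcription factors. Adipocyte differentiation also follows an exit from the cell cycle, and is driven by PPARγ and C/EBPα, which switch on the genes for fatty acid uptake, triglyceride synthesis and the proteins that coat the lipid droplet. Rosiglitazone is a ligand of PPARγ, dexamethasone activates the glucocorticoid receptor, isobutylmethylxanthine raises cyclic AMP, and T3 is thyroid hormone.

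Values are FPKM, fragment counts scaled by the authors to gene length and library size. Libraries of the 27 samples held 9567769 to 27230965 fragments assigned to genes, those of NFIA cells at day 0 held 25630237, 25233845 and 11323688, and those at day 7 held 9567769, 20598872 and 11422419. Changes are given as the log2 of FPKM + 1 at day 7 minus that at day 0, with standard errors (SE) from a limma fit to the 6 NFIA samples (n = 3 for each time point). The added 1 makes the changes of genes with low values smaller than their ratio of FPKM. A gene is said to have risen or fallen where its Benjamini-Hochberg adjusted p from limma was under 0.05. It is said to be called higher or lower where its change was also more than 3-fold.

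Of 24825 genes, 12346 had a mean of at least 0.5 FPKM and were tested. Among these, 676 genes (5.48%) were called higher at day 7 and 585 (4.74%) were called lower. Without the limit on fold, 4026 (32.6%) rose and 5685 (46%) fell, and in 81.2% of the genes tested the 3 values at one time point did not overlap the 3 at the other. The counts of each gene list below are to be read beside these shares. The median gene had a log2 change of -0.12. Changes of more than 8-fold were found in 233 of the genes called higher and in 109 of those called lower, and changes of more than 32-fold in 66 and 1, respectively. Genes called higher took 2.31 to 2.35% of all fragments at day 0 and 17.1 to 17.9% at day 7, whereas the share of genes called lower went from 9.30-9.38% to 1.60-1.80%. When samples were scaled by the median ratio over genes instead of the total, the scale dropped by 0.14 on the log2 scale from day 0 to day 7, so that changes were that much larger upwards, and 740 genes were called higher and 519 lower. Among the genes named here with a negative change, this shift exceeds the change of Plin3, Rbl2 and Cav2. Neither Plin3 nor Rbl2 passed the test, and the sign of their change turns with the shift.

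**Figure D1:**
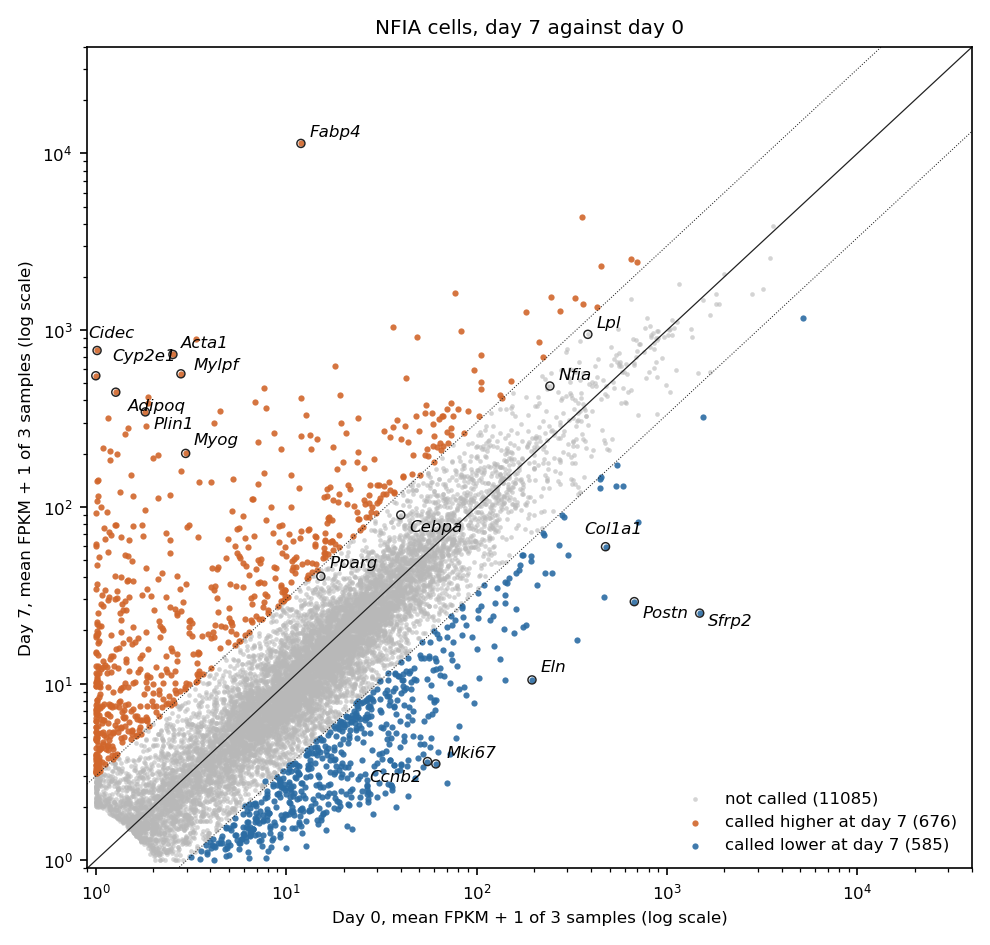
Mean FPKM + 1 of the 3 NFIA samples at day 7 (vertical, log scale) against day 0 (horizontal, log scale), 1 point for each of 12346 genes tested. The solid line marks equal values and the dotted lines a 3-fold change. Orange points are the 676 genes called higher and blue points the 585 called lower, and circles mark genes named in the text. Adipocyte and muscle genes lie together at the upper left, far above the upper dotted line, and Nfia, Pparg and Cebpa lie between the dotted lines.

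The introduced factor and its relatives were measured first. Nfia had 225, 249 and 250.2 FPKM at day 0 and 457, 528 and 459.6 FPKM at day 7. All day 7 samples were above all day 0 samples, and the change was 0.99 ± 0.071 on the log2 scale (limma adjusted p = 3.57e-06). Fragments of the retroviral Nfia and of the cell's own Nfia fall on the same gene and cannot be told apart. In control cells Nfia had a mean of 2.80 FPKM at day 0 and 0.143 at day 7. The other members of the family fell slightly in NFIA cells, with changes of -0.58 for Nfib, -0.38 for Nfix and -0.24 for Nfic, whose adjusted p was 0.0105 with limma and 0.177 under median-ratio scaling, so that its fall was lost there.

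Adipocyte genes led the rises, with muscle genes such as Acta1 also among the 12 largest. Fabp4, the fatty acid carrier of the adipocyte cytoplasm, had 11.1, 11.9 and 9.86 FPKM at day 0 and 11235, 12147 and 10778 FPKM at day 7. Its change of 9.90 ± 0.074 (limma adjusted p = 3.40e-11) was the largest of all genes tested, and its share of all fragments went from 0.000671-0.000808% to 0.734-0.827%. Cidec, a lipid droplet protein that joins droplets into larger ones, had 0, 0.0461 and 0 FPKM at day 0 and 744, 783 and 770.01 FPKM at day 7, a change of 9.56 ± 0.043. Adipoq, which encodes the hormone adiponectin, had 0.222, 0.0965 and 0.502 FPKM at day 0 and 423, 467 and 443 FPKM at day 7, a change of 8.46 ± 0.11. For each of these genes the day 0 values were near 0 relative to day 7, and no sample of one time point came near the other. Cyp2e1, a cytochrome P450 enzyme, had no fragment in any day 0 sample and 500.2, 643 and 509 FPKM at day 7. Against a floor of 3 fragments over the day 0 group, this was at least 19820-fold higher. Pck1, the gate enzyme of glyceroneogenesis, and Retn, which encodes resistin, also had no fragment at day 0 and reached means of 60.4 and 91.6 FPKM, at least 3274.5-fold and at least 2443.1-fold higher. In a bulk sample, more cells of a type and more RNA per cell cannot be told apart, so that these values do not say what share of the cells took part.

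On NCBIM37 (mm9), with GENCODE annotation, Fabp4 lies on the minus strand of chromosome 3 at 10204347-10208576, Cidec on the minus strand of chromosome 6 at 113374628-113385754 and Adipoq on the plus strand of chromosome 16 at 23146609-23158101. The counter in STAR, which the authors used, assigns a fragment to a gene where it overlaps the exons of that gene alone.

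Among the regulators of adipocyte differentiation, changes were mostly under 3-fold. Pparg had 12.9, 13.6 and 16.0 FPKM at day 0 and 40.4, 40.4 and 37.8 FPKM at day 7, a change of 1.42 ± 0.076 (limma adjusted p = 6.30e-07). Cebpa had 40.8, 42.1 and 34.0 FPKM at day 0 and 91.1, 91.3 and 84.7 FPKM at day 7, a change of 1.18 ± 0.079 (limma adjusted p = 2.44e-06). Both rose without overlap between the time points, and both stayed under the 3-fold limit. Of 21 transcription factors of adipogenesis tested, 14 rose and 6 fell, and 3 were called higher (6 with a pseudocount of 0.1) and none lower, beside 5.48% and 4.74% of all genes tested. The 3 were Nr1h3, the oxysterol receptor LXRα, with a change of 3.94 from a mean of 1.66 to 39.6 FPKM, and the Krüppel-like factors Klf15 (2.41) and Klf9 (2.28). Srebf1, which drives the lipogenic enzymes, rose by 1.24 and Cebpb, an early factor of the cascade, by 0.63, both under 3-fold. Zfp423, a zinc finger factor of preadipocyte commitment, fell by 0.67. The median of the list was 0.63, beside -0.12 over all genes tested.

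Proteins of the lipid droplet and its lipases had the highest median of the lipid lists. Of 19 genes tested out of 22 listed, 14 were called higher and none lower, 16 rose and 2 fell, and the median change was 3.50. Plin1, the perilipin of the mature adipocyte, had 0.815, 0.724 and 0.922 FPKM at day 0 and 368, 325 and 337 FPKM at day 7, a change of 7.56 ± 0.062. Pnpla2, the adipose triglyceride lipase, had 6.69, 6.46 and 6.89 FPKM at day 0 and 457, 470.1 and 479 FPKM at day 7, a change of 5.93 ± 0.041. G0s2, which inhibits that lipase, went from 47.9 to 918 FPKM, a change of 4.23, so that the lipase and its inhibitor rose together. Lipe (4.20) and Mgll (4.67), the lipases of the next steps, were called higher as well. The perilipins differed: Plin2 (3.58), Plin4 (2.80) and Plin5 (3.50) were called higher, and Plin3 did not pass the test, with 65.6 FPKM at day 0 and 60.3 at day 7. Adrb3, the β-adrenergic receptor of adipocytes, reached only 1.54 FPKM at day 7, with a change of 1.31.

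Of 15 genes tested for fatty acid uptake and binding, 6 were called higher and 3 fell without a call. Beside Fabp4 these were Cd36 (7.10), the membrane receptor for fatty acids, Fabp3 (5.10), Fabp5 (4.85), Acsl1 (3.62), which activates fatty acids with coenzyme A, and Vldlr (2.10). Fabp5 went from 35.3 to 1042 FPKM. The acyl-CoA synthetases moved apart, since Acsl3 (-1.13) and Acsl5 (-1.28) fell and Acsl4 had 19.1 and 19.3 FPKM and did not pass the test. Lpl, the lipase that frees fatty acids from lipoproteins, was already at 383 FPKM at day 0 and rose to 946, a change of 1.30. The median of the list was 0.43.

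All 31 genes listed for fatty acid and triglyceride synthesis were tested, and 15 were called higher and none lower (1 with a pseudocount of 0.1). Calls were found at each step from glycerol phosphate to triglyceride, although not for each enzyme of a step. Gpd1, which makes glycerol phosphate, had 2.31, 2.28 and 2.54 FPKM at day 0 and 879, 919.7 and 865 FPKM at day 7, a change of 8.04 ± 0.046, with no overlap between time points. Gpat3 (3.46), Agpat2 (5.12), Lpin1 (3.02), Dgat1 (2.65) and Dgat2 (6.28) catalyse the following steps and were called higher. Other enzymes of these steps were not called, with changes of 1.42 for Gpam, 0.47 for Gpat4, -0.55 for Lpin2 and 0.12 for Lpin3, nor was Gk, the glycerol kinase (-0.29). Fasn, the fatty acid synthase, went from 73.9 to 324 FPKM (2.12) and Scd1, the main desaturase, from 358 to 4392 FPKM (3.61). Acly (0.87) and Acaca (1.02), which supply acetyl-CoA and malonyl-CoA, rose less than 3-fold, and Acacb, the mitochondrial carboxylase, was called higher (1.87). The elongases and the desaturases of polyunsaturated chains fell: the changes were -0.82 for Elovl5, -1.52 for Elovl6, -1.54 for Fads1 and -1.47 for Fads2. The second stearoyl-CoA desaturase, Scd2, fell by 0.58 while Scd1 rose. Pcx, which feeds oxaloacetate into lipogenesis, had a change of 5.04 and Me1, a source of NADPH, of 2.10.

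Genes of cholesterol synthesis and uptake went the other way. Of 25 genes tested, 20 fell and 4 rose, 6 were called lower and 1 higher, and the median change was -0.94. Those called lower included Stard4 (-2.48), a cholesterol carrier, and Idi1 (-2.04), an isomerase of the isoprenoid steps. Srebf2, the regulator of this pathway, fell by 1.35. The gene called higher was Abca1 (2.88), which exports cholesterol. Srebf1 and Srebf2, paralogous regulators, thus had changes of 1.24 and -1.35.

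Secreted products of adipocytes were called higher in 13 of 19 genes tested, and none was called lower. Rbp4, the retinol carrier, went from 0.881 to 386 FPKM (7.68), Cfd, the protease adipsin, from 0.0143 to 107 FPKM (6.73) and Retn, resistin, had a change of 6.53. Fgf21 (6.20), Angptl4 (5.10), Rarres2 (4.81) and Hp (4.25) were also called higher. Leptin (Lep) was listed at a mean of 0 FPKM at day 0 and 0.103 at day 7 and was under the limit of the test. C3, complement component 3, went from 0.871 to 419 FPKM, a change of 7.82 ± 0.092, and Adig, a small adipocyte membrane protein, from 0.0932 to 213 FPKM, a change of 7.62 ± 0.095.

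Markers of brown fat gave a divided picture. Cox8b, a cytochrome oxidase isoform, had 0, 0.218 and 0.243 FPKM at day 0 and 310.1, 324 and 312 FPKM at day 7, a change of 8.11 ± 0.083. Cidea (4.73), Ucp3 (4.36), Ucp2 (2.66), Ppargc1a (2.10) and Dio2 (2.37) were called higher, and Ppargc1a reached 4.23 FPKM at day 7. Not all of this was particular to NFIA cells. In control and Δpro#3 cells the changes were 2.74 and 2.88 for Dio2, 2.18 and 2.65 for Ucp3 and 3.90 and 5.77 for Cox8b. Those of Ucp2 (-0.72 and 0.42) and Ppargc1a (0.63 and 0.71) were smaller there, and Cidea was under the limit of the test. Ucp1, the uncoupling protein that defines brown fat, had no fragment in any of the 6 samples, where 3 fragments over the day 0 group would be a mean of 0.0293 FPKM. Of 34 genes listed, 18 passed the limit on low values, 9 of these were called higher and none lower. Prdm16, Ppara, Elovl3, Kcnk3 and Lhx8, all markers of brown or beige fat, were among the 16 that did not pass it, with day 7 means of 0.00527, 0.648, 0.440, 0.401 and 0.0176 FPKM. Counts and medians of this list cover only the members that were expressed.

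Mitochondrial genes rose broadly and mostly by less than 3-fold. Of 79 subunits of oxidative phosphorylation tested, 78 rose, none fell and 9 were called higher, and the median was 0.99. Of 33 genes of fatty acid β-oxidation, 31 rose, 1 fell and 9 were called higher, with a median of 1.17, and of 21 genes of the tricarboxylic acid cycle 20 rose, none fell and 9 were called higher, with a median of 1.32. Subunits with tissue-specific isoforms stood above the rest: Cox6a2 (4.28) and Cox7a1 (4.18), the isoforms of heart and skeletal muscle, went from 2.43 to 66.1 FPKM and from 0.438 to 25.0 FPKM. Acaa1b (4.49), a peroxisomal thiolase, Pdk4 (3.76), which restrains pyruvate dehydrogenase, Crat (2.49) and Acadm (2.39) were among those called in β-oxidation. Cpt1a, the gate of the mitochondrion for long fatty acids, rose by only 0.40. Mpc1, a subunit of the pyruvate carrier, rose by 2.69, Mdh1 by 2.27 and citrate synthase (Cs) by 1.69. Only uniquely aligned reads were counted, which leaves out genes with near-identical copies, and Ndufs5 was listed at 0 in all 6 samples.

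Glucose handling was called higher in 10 of 26 genes tested and lower in none. Those called included Pgam2 (3.27), the muscle phosphoglycerate mutase, Pfkfb3 (3.21) and Slc2a4 (2.56), the insulin-regulated transporter GLUT4. Slc2a4 still had a mean of only 6.51 FPKM at day 7, while Slc2a1, the basal transporter, went from 39.7 to 63.7 FPKM. The glycolytic enzymes Aldoa (2.36) and Ldha (1.65) reached 2307 and 1353 FPKM at day 7. Irs1, the insulin receptor substrate, fell by 0.47, and Insr, the receptor, rose by 0.58.

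**Figure D2:**
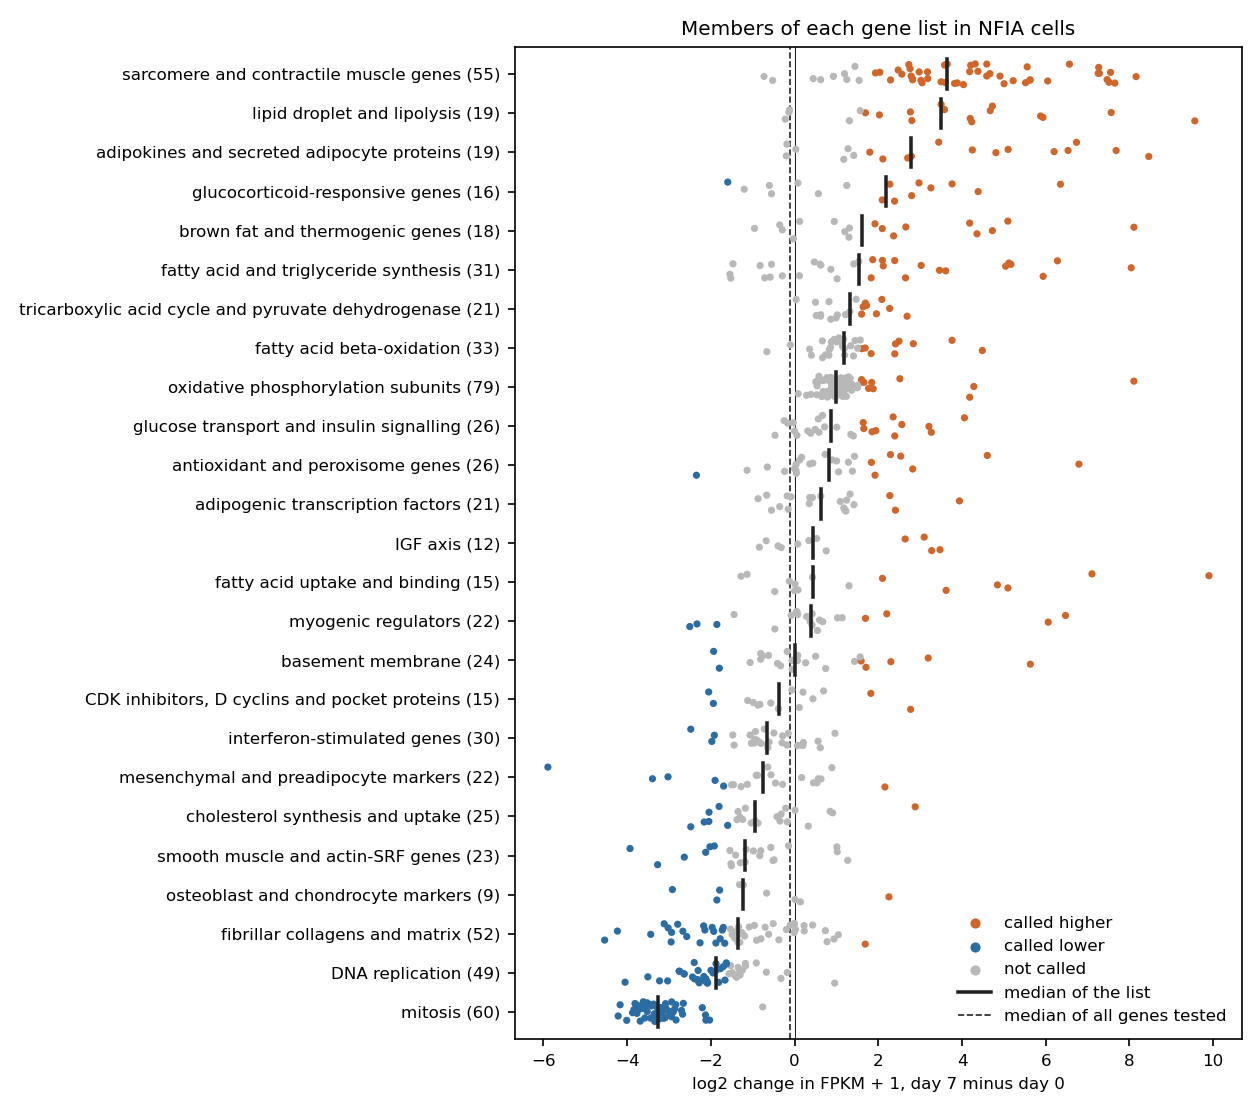
Change from day 0 to day 7 in NFIA cells (log2 of FPKM + 1, horizontal) for every tested member of the gene lists, with the number tested in brackets. Orange and blue points were called higher and lower, grey points were not called, black bars mark each list's median and the dashed line the median of all genes tested, -0.12. Sarcomere genes (median 3.65) and lipid droplet genes (3.50) stand at the top and mitosis genes (-3.26) at the bottom.

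The cell cycle fell as a whole. Of 60 genes of mitosis, all tested, 60 fell and 59 were called lower, with a median of -3.26, and of 49 genes of DNA replication 48 fell, 1 rose and 32 were called lower, with a median of -1.88. Mki67, the proliferation marker Ki-67, had 59.8, 59.3 and 61.2 FPKM at day 0 and 1.98, 1.75 and 3.80 FPKM at day 7, a change of -4.17 ± 0.18 (limma adjusted p = 2.00e-07). Ccnb2, a mitotic cyclin, had 55.7, 53.8 and 53.1 FPKM at day 0 and 1.63, 1.86 and 4.37 FPKM at day 7, a change of -4.01 ± 0.24, and Ccna2, the cyclin of S phase and G2, had 72.7, 69.1 and 72.7 FPKM at day 0 and 2.69, 2.14 and 4.15 FPKM at day 7, a change of -4.21 ± 0.16. All day 7 samples lay far below all day 0 samples, and the third day 7 replicate was the highest of its group in each of these genes. The member of the mitosis list that was not called was the phosphatase Cdc25b (-0.76). Of the replication genes Tk1, thymidine kinase, had 81.5, 74.7 and 74.8 FPKM at day 0 and 3.13, 2.52 and 6.20 FPKM at day 7, a change of -4.05 ± 0.23. Uhrf1 (-3.50), which maintains DNA methylation, Mcm5 (-3.22), a subunit of the replicative helicase, and Lig1 (-3.03), the replicative ligase, followed. The member that rose was E2f2 (0.96), from 2.05 to 4.94 FPKM, while the other E2F genes of the list, E2f1 (-0.67) and E2f8 (-1.66), fell.

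Inhibitors of the cycle did not move as a group. Cdkn1a, which encodes the inhibitor p21, had 41.2, 41.3 and 40.8 FPKM at day 0 and 306, 269 and 286 FPKM at day 7, a change of 2.77 ± 0.051 without overlap. Cdkn1c, p57, went from 0.998 to 6.44 FPKM (1.82), and this call was lost without the first day 7 replicate. Cdkn1b, p27, fell by 0.57, Cdkn2d by 0.99, and Cdkn2a and Cdkn2b were listed at 0 in both groups. Of the D cyclins, Ccnd1 was called lower (-2.05), Ccnd2 fell by 0.38 and Ccnd3, which muscle cells retain, rose by 0.44. Of the pocket proteins, Rbl1 was called lower (-1.94), Rb1 rose by 0.69 and Rbl2 did not pass the test (14.8 and 14.1 FPKM). Over 15 genes tested, 2 were called higher and 2 lower, and the median was -0.38.

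Promoters of cell cycle genes are shown here because their fall was the most uniform change. In each list, the called genes with the largest changes whose window held the elements searched for were picked. That the windows printed hold them was therefore fixed by the choice. Genes with larger changes, such as Ccna2 and Tk1, were passed over. The windows run from 250 bases before the start site to 50 after it and are from RefSeq on GRCm38.p6, a different build from that of the FPKM values, so that positions are not joined between the builds. Capitals mark matches, on either strand, to CCAAT and to the cell cycle homology element, searched as TTTGAA and TTCGAA, in Mki67 (chr7:135716330-135716629, minus strand) and Ccnb2 (chr9:70421505-70421804, minus strand), and to the E2F element, searched as TTTGGCGC and TTTCGCGC, in Uhrf1 (chr17:56304063-56304362, plus strand), where CCAAT is not marked.
Mki67: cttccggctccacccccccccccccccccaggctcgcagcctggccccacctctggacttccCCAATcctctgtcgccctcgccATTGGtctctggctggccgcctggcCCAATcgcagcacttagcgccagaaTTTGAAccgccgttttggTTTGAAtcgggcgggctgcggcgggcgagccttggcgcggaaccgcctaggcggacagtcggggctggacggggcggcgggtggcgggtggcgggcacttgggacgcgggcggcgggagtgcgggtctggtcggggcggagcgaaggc
Ccnb2: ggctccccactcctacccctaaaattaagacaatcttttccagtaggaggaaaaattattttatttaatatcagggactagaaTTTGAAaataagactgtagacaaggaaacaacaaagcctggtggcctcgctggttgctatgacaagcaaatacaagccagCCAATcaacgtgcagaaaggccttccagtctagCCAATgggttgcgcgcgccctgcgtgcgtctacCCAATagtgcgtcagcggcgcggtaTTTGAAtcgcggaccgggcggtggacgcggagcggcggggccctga
Uhrf1: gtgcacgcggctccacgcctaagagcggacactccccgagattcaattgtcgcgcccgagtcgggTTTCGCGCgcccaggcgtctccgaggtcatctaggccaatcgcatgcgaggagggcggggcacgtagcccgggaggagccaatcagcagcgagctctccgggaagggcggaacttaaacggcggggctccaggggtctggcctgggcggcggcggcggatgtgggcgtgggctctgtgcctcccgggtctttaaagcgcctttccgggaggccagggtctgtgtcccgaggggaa

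Mki67 and Ccnb2 held 5 marked matches each, and Uhrf1 held 1 match to the E2F element. Among 50 mitosis genes with a window, 32 (64%) held both CCAAT and a cell cycle homology element, beside 8.61% of 27025 windows of all genes. Genes called lower held both in 83 of 436 windows (19%) and genes called higher in 27 of 487 (5.54%), beside 6.74% of the 9504 windows of genes tested. The E2F element was found in 13 (33.3%) of 39 windows of DNA replication genes, in 4.59% of the genes called lower, in 1.85% of those called higher, in 1.83% of the genes tested and in 0.929% of all windows. CCAAT, with or without the other element, was found in 15 (93.8%) of 16 windows of the cholesterol list and in 41.1% of all windows. The palindromic element of the nuclear factor I family (TTGGC and GCCAA, 5 bases apart) and the DR1 element of PPARγ (AGGTCA repeated after 1 base) were in 0 of 487 windows of genes called higher, and in 12 and 13 of all windows. These counts are of letters in a window of 300 bases, and binding was not measured here.

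Muscle genes rose in the same samples in which adipocyte genes did. Of 55 sarcomere and contractile genes tested out of 60 listed, 53 rose and 2 fell, 46 were called higher and none lower, and the median was 3.65 (5.73 with a pseudocount of 0.1). Acta1, the actin of the skeletal muscle thin filament, had 1.37, 1.51 and 1.74 FPKM at day 0 and 837, 653 and 692 FPKM at day 7, a change of 8.16 ± 0.096 (limma adjusted p = 2.11e-10). Mylpf, the regulatory light chain of fast muscle, had 1.98, 1.67 and 1.75 FPKM at day 0 and 652, 485 and 558 FPKM at day 7, a change of 7.65 ± 0.10. For both genes the first day 7 replicate was the highest and the second the lowest, and all day 7 values were far above all day 0 values. Thin and thick filament were both covered: Tnni1 (7.55), Tnni2 (7.28) and Tnnt3 (6.57) of the troponin complex, Actc1 (7.25) and Myl1 (7.51) were called higher, as were myoglobin (Mb, 7.47) and the calcium pump Atp2a1 (5.62). Levels at day 7 differed widely within the list, and Ttn, titin, which was called higher (3.05), reached 7.70 FPKM, and Ryr1, the calcium release channel, also called higher (2.78), reached 6.29. The 2 members that fell were tropomyosins, Tpm1 (-0.52) and Tpm3 (-0.73), which non-muscle cells also use, whereas Tpm2 rose by 1.25.

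The heavy chains of myosin mark the stage of a fibre, since embryonic and perinatal isoforms precede the adult ones. Of the summed FPKM of 6 sarcomeric heavy chains at day 7, the embryonic Myh3 took 47.2% ± 5.26 (SD, n = 3), the fast adult Myh1 26.0% ± 3.07 and the perinatal Myh8 15.6% ± 0.805. Myh4, Myh2 and Myh7 took 4.08% ± 1.14, 3.72% ± 0.151 and 3.42% ± 0.844. Myh3 had 0.130, 0.132 and 0.0442 FPKM at day 0 and 105, 53.0 and 66.4 FPKM at day 7, so that at day 0 there was hardly any of it.

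Among the regulators of myogenesis, Myog, myogenin, had 1.98, 1.77 and 2.15 FPKM at day 0 and 248, 159 and 192 FPKM at day 7, a change of 6.06 ± 0.14, and Mymk, the fusion protein myomaker, had 0.261, 0.345 and 0.414 FPKM at day 0 and 145, 89.2 and 126 FPKM at day 7, a change of 6.47 ± 0.16. Both were without overlap and highest in the first day 7 replicate. Myod1 had 17.5, 18.3 and 17.6 FPKM at day 0 and 29.5, 18.3 and 25.9 FPKM at day 7. The second day 7 replicate equalled the highest day 0 value to 3 digits, the change was 0.42 ± 0.15 (limma adjusted p = 0.0291), and it no longer passed without the filter on low values or when any of 5 replicates was left out alone (adjusted p of 0.0557 to 0.0912). Myf5 rose by 0.29 and Mef2c was called higher, from 0.682 to 4.45 FPKM (1.69). Myf6, a late member of the MyoD family, stayed under the limit of the test with a mean of 0.544 FPKM at day 7. The inhibitors Id3 (-2.50), Id2 (-2.33) and Id1 (-1.86), which sequester partners of the MyoD proteins, were called lower. Of 22 regulators tested out of 28 listed, 4 were called higher and 3 lower.

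**Figure D3:**
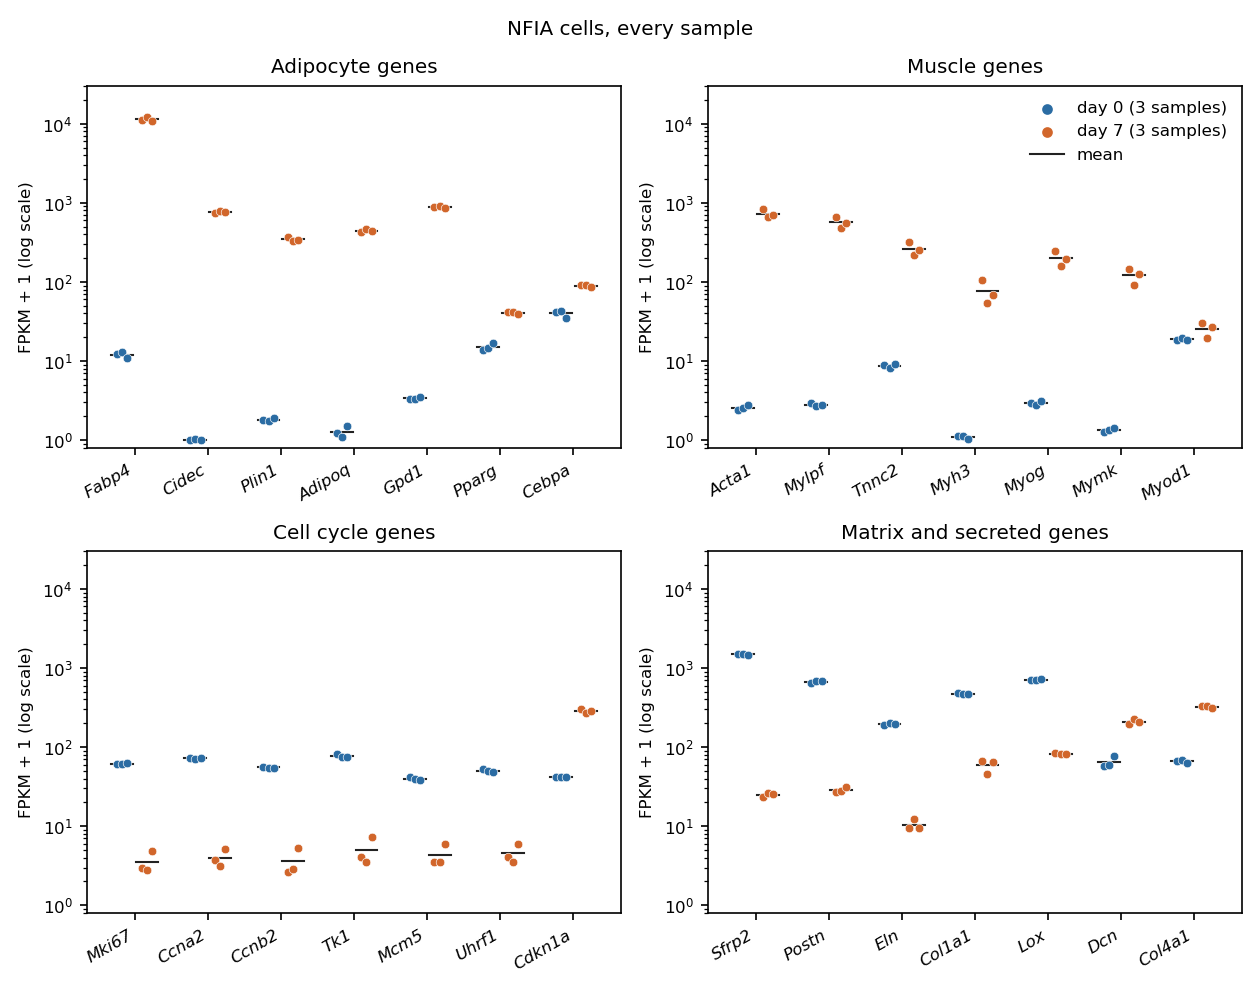
FPKM + 1 (log scale) of 28 genes in each of the 3 day 0 samples (blue) and 3 day 7 samples (orange) of NFIA cells, with bars at the means. The values of Myod1 meet between the time points. In the cell cycle panel the replicates of day 7 spread more widely on the log scale than those of day 0.

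The skeletal and cardiac actins were among the largest rises, with changes of 8.16 and 7.25. Their promoters are shown as those of the called sarcomere genes with the largest rises whose window held the element searched for. Genes with larger rises than Actc1, such as Mylpf, were passed over, so that the match was fixed by the choice. Capitals mark a match to the CArG box, the element bound by serum response factor, on either strand, in Acta1 (chr8:123894726-123895025, minus strand) and Actc1 (chr2:114052826-114053125, minus strand) of GRCm38.p6 in RefSeq.
Acta1: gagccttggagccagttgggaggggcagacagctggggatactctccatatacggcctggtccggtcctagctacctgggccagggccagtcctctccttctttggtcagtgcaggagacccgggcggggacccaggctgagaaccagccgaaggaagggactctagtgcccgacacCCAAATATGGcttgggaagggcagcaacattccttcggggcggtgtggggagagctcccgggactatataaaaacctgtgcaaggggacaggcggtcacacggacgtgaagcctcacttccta
Actc1: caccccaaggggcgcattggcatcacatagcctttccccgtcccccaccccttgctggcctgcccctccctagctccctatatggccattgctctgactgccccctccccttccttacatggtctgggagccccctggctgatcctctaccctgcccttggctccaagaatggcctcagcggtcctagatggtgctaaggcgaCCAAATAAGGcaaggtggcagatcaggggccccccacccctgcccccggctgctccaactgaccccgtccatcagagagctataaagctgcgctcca

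The CArG box was found in 6 (13.0%) of 46 windows of sarcomere genes, in 4 (23.5%) of 17 windows of smooth muscle and actin genes and in 1.81% of all windows. While sarcomere genes rose, 19 of 23 smooth muscle and actin genes fell, 3 rose and 6 were called lower and none higher (2 with a pseudocount of 0.1), with a median of -1.18. Cyr61 (-3.93) and Ctgf (-3.27), secreted matrix proteins that respond to tension of the actin skeleton, fell most, followed by Actg2 (-2.63) and Cnn1 (-2.12). Srf itself fell by 1.18. Acta2, the smooth muscle actin, had means of 627 and 444 FPKM (-0.51).

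The matrix of the myoblast fell. Of 52 fibrillar collagen and matrix genes tested, 39 fell and 7 rose, 20 were called lower and 1 higher, and the median was -1.34. Postn, periostin, had 643, 693 and 681 FPKM at day 0 and 26.4, 27.1 and 30.7 FPKM at day 7, a change of -4.54 ± 0.063. Eln, elastin, had 191, 199.7 and 193 FPKM at day 0 and 8.55, 11.5 and 8.46 FPKM at day 7, a change of -4.23 ± 0.10. Neither overlapped between time points, and the lysyl oxidase Lox (-3.11), which crosslinks both collagen and elastin, fell with them from 706 to 80.7 FPKM. Col1a1 fell by 3.02, Col1a2 by 2.26 and Col3a1 by 0.91. The small proteoglycans moved apart: Aspn (-3.43) and Ogn (-1.78) fell and Dcn, decorin, was the member called higher, from 64.2 to 208 FPKM (1.69).

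Basement membrane genes had no common direction. Of 24 tested, 10 rose and 10 fell, near the shares of all genes tested, of which 32.6% rose and 46% fell. Of the 24, 5 were called higher and 2 lower, beside 5.48% and 4.74% of all genes. The median was 0.01, beside -0.12 over all genes. Col15a1 went from 0.573 to 77.0 FPKM (5.63), and Col4a1 (2.30), the main chain of the basement membrane network, Npnt (3.19), a ligand of integrins, and Lamb1 (1.71) were also called higher. Itga1 (-1.93), a collagen receptor, and Lamb2 (-1.80) were called lower, so that the 2 laminin β chains moved in opposite directions.

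Sfrp2, a secreted antagonist of Wnt signalling, had the largest fall. It had 1487, 1503 and 1462 FPKM at day 0 and 22.7, 24.9 and 24.5 FPKM at day 7, a change of -5.89 ± 0.047 (limma adjusted p = 3.61e-11), with all day 7 samples below all day 0 samples. Its share of all fragments went from 0.292-0.301% to 0.00454-0.00499%. Sfrp2 was 1 of 22 mesenchymal and preadipocyte markers tested, of which 15 fell and 6 rose, 5 were called lower and 1 higher, with a median of -0.76. Wnt10b (-3.39), a Wnt ligand that restrains adipogenesis, Bmp4 (-3.02) and Gas1 (-1.90) were called lower, and Clec3b, tetranectin, was called higher (2.16). Pdgfra, the marker of fibro-adipogenic progenitors, fell by 1.13, and Dlk1, the preadipocyte marker, was listed at 0. Other large falls were D17H6S56E-5 (-4.68), Nov (-4.26), a matrix protein of the Ccn family, Penk (-4.25), proenkephalin, Stmn2 (-4.25) and the receptor Tlr2 (-4.04).

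The IGF axis, which acts on both muscle and fat, was called higher in 4 of 12 genes tested and lower in none. These were the binding proteins Igfbp4 (3.47) and Igfbp5 (3.10), the ligand Igf2 (3.28) and its imprinted neighbour H19 (2.64), which went from 244 to 1530.1 FPKM. Igf1 fell by 0.68 and its receptor Igf1r by 0.84. Igfbp2 had 6.46 and 10.4 FPKM and did not pass the test.

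Of 16 genes that respond to glucocorticoids, 9 were called higher and 1 lower, with a median of 2.19, and dexamethasone had been in the medium for the first 48 h. Lcn2, lipocalin, had a change of 6.35, the metallothioneins Mt2 and Mt1 of 4.39 and 2.80, Zbtb16 of 3.26 and Tsc22d3 of 2.39. Sgk1 was the member called lower (-1.60), close to the 3-fold limit, and lost the call under median-ratio scaling and when any of 3 replicates was left out alone.

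Of 30 interferon-stimulated genes tested out of 35 listed, 18 fell and 6 rose, 3 were called lower (9 with a pseudocount of 0.1) and none higher, with a median of -0.65. The 3 were Ifit1 (-2.48), Ifit2 (-1.97) and Ifit3 (-1.92), and the levels were low, with Ifit1 at 9.57 FPKM at day 0. B2m, the light chain of MHC class I, rose by 0.97. Of 26 antioxidant and peroxisome genes, 7 were called higher and 1 lower, with a median of 0.82. Ephx2 (6.79), an epoxide hydrolase, Gsta3 (4.60), Pex11a (2.82), which divides peroxisomes, and Hmox1 (2.54) led, and Sod3 (-2.34) was called lower.

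Markers of other cells were measured as a check of the labels. The leukocyte markers Ptprc, Adgre1, Itgam, Fcgr1, Tyrobp, Aif1, Cd3e and Cd79a were at or near 0 throughout, 3 of 12 markers passed the limit on low values, and the summed level of the list was 20.4 to 22.2 FPKM at day 0 and 14.3 to 16.6 at day 7. Of these 3, Cd68, a lysosomal protein, was called higher (1.71), Lyz2 was called lower (-2.20) and Cd14 fell by 1.08. None of 9 endothelial markers passed, and their sum was 0.735 to 0.913 FPKM at day 0 and 0.413 to 0.718 at day 7. Of the osteoblast and chondrocyte markers, 9 of 16 were tested, 3 were called lower (Col2a1, Runx2 and Phex) and Bglap was called higher (2.26). Of 5 tendon markers tested, Egr1 (-3.08), Egr2 (-2.64) and Fmod (-2.14) were called lower. The myoblast markers Myod1, Des and Cdh15 were present at day 0, with 17.8, 114 and 16.4 FPKM, and the last 2 rose by 1.03 and 1.14. Of the other markers chosen for myoblasts, Myog was low at day 0, with the values given above, and rose by 6.06, and Myf5 rose by 0.29.

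The 3 samples of day 7 differed from each other along whole gene lists. Among members with a mean of at least 1 FPKM at day 7, 40 of 54 sarcomere genes and 15 of 21 myogenic regulators were highest in replicate 1. In contrast, 48 of 50 mitosis genes and 35 of 43 DNA replication genes were highest in replicate 3, and 18 of 30 genes of fatty acid and triglyceride synthesis and 20 of 33 of β-oxidation were highest in replicate 2. Over all 11376 genes of this level, replicates 1, 2 and 3 were the highest in 36.1%, 32.3% and 31.6%, respectively. Summed over the list, sarcomere genes had 5759, 4299.8 and 4872 FPKM in replicates 1, 2 and 3, mitosis genes 170.1, 156 and 248, and lipid droplet genes 4456, 4381 and 4375. The spread was thus widest for mitosis genes and narrow for lipid droplet genes. The differences were small beside those between time points: leaving out any single replicate gave medians of 3.61 to 3.82 for sarcomere genes, -3.42 to -3.15 for mitosis genes and 3.48 to 3.54 for lipid droplet genes. Members of a list come from the same library and are not independent, and a cause of the differences was not tested.

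**Figure D4:**
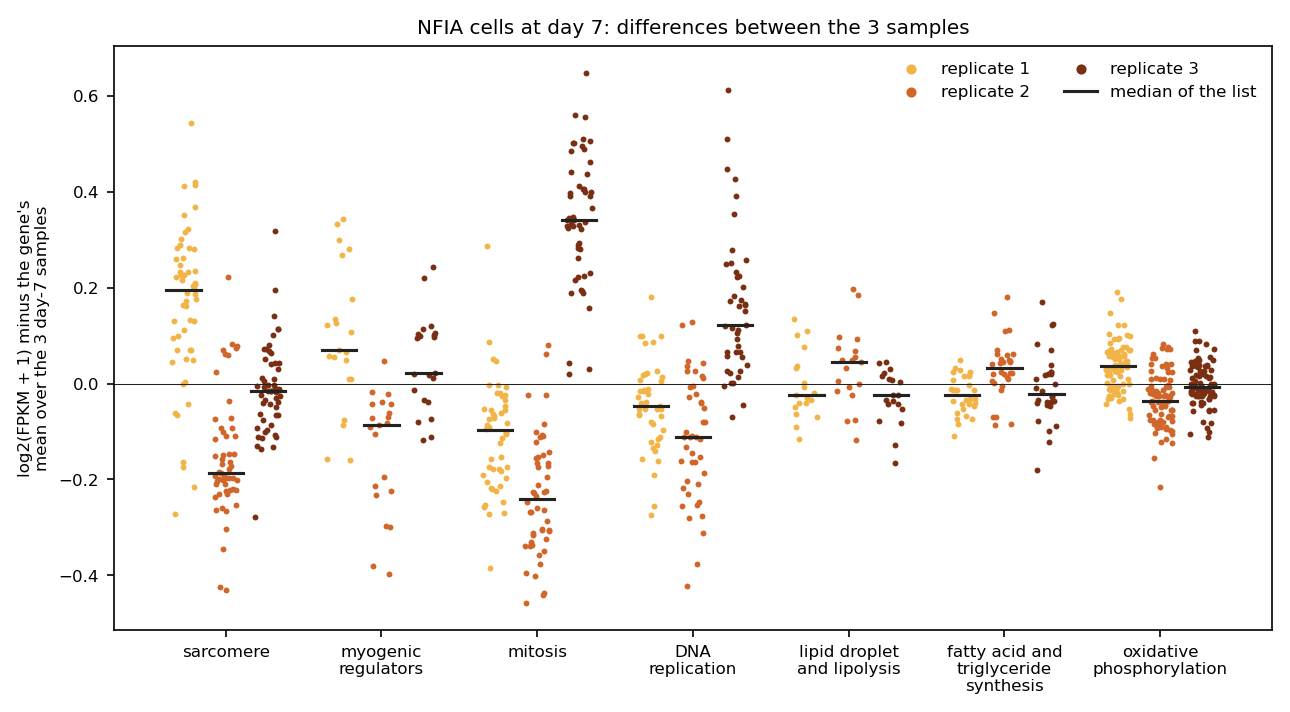
Deviation of each gene in each of the 3 day 7 samples of NFIA cells from its own mean over these samples (log2 of FPKM + 1, vertical), for list members with a mean of at least 1 FPKM, with bars at the medians. Replicate 1 (yellow) is highest for sarcomere genes and replicate 3 (dark brown) for mitosis genes, whereas the medians of the lipid droplet list lie between -0.025 and 0.046.

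Which of these changes were particular to cells with full-length NFIA was asked by testing the difference in change, NFIA minus control cells and NFIA minus Δpro#3 cells, in a limma fit to 18 samples (n = 3 per group). Control and Δpro#3 cells went through the same days and medium. Of 12408 genes tested, 562 (4.53%) changed more upwards in NFIA than in control cells by more than 3-fold and 384 (3.09%) more downwards. Against Δpro#3 cells these were 397 (3.2%) and 273 (2.2%). Both comparisons use the same NFIA samples, so that they are not independent. In their own comparisons of day 7 with day 0, control cells had 454 genes called higher (3.73%) and 378 lower (3.11%), and Δpro#3 cells 485 (3.96%) and 365 (2.98%).

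Of the 676 genes called higher in NFIA cells, 221 (32.7%) were also called higher in control cells, which was 48.7% of those called there. In Δpro#3 cells 256 (37.9%) were also called higher, which was 52.8% of those called there. Of the 585 called lower, 163 (27.9%) were called lower in control cells (43.1% of those called there) and 243 (41.5%) in Δpro#3 cells (66.6%). These counts do not test a difference between the kinds of cells, which was done gene by gene.

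Genes of the lipid droplet and of triglyceride synthesis mostly had a higher change in NFIA cells, and those of fatty acid uptake did so less uniformly. Of 19 lipid droplet genes, 11 had a higher change than in control cells and 11 than in Δpro#3 cells, by more than 3-fold. Over all genes tested these shares were 4.53% and 3.2%. The medians of the change were 3.50 in NFIA, 0.93 in control and 0.78 in Δpro#3 cells. These medians cover 19, 15 and 16 genes, since each kind of cells has its own tested members, and do not compare the same genes. For Cidec the difference was 5.93 ± 0.57 against control (limma adjusted p = 8.83e-08) and 4.66 ± 0.57 against Δpro#3 cells (limma adjusted p = 2.22e-06), but with limma-voom on fragments these were 4.89 and 6.68 and did not pass (limma adjusted p = 0.375 and 0.143). Fabp4 rose in all 3 kinds of cells, by 9.90, 6.95 and 7.02 in NFIA, control and Δpro#3 cells, with differences of 2.95 ± 0.74 and 2.88 ± 0.74. Fabp4 went from 0.232 to 151 FPKM in control cells, and the added 1 shrinks a change that starts so low. With a pseudocount of 0.1 the difference from control cells was 1.04 and did not pass (limma adjusted p = 0.372), while that from Δpro#3 cells was 2.41 (limma adjusted p = 0.04996), and with limma-voom neither passed. The Δpro#3 samples of day 7 were spread widely, at 1415, 294 and 354 FPKM. For triglyceride and fatty acid synthesis, 15 and 16 of 30 genes had a higher change by over 3-fold. The median was -0.13 in control and -0.01 in Δpro#3 cells, over the 27 and 28 genes tested there, beside 31 in NFIA cells. For fatty acid uptake and binding, 4 and 5 of 15 genes had a higher change by over 3-fold, and without the limit on fold 9 and 10 had a higher and 5 and 3 a lower change. Over all genes and without that limit, 31.1% and 29.5% had a higher and 40.1% and 33.9% a lower change. Among the 5 with a higher change than in Δpro#3 cells by over 3-fold was Cav2, a caveolin, with changes of -0.12 in NFIA and -1.81 in Δpro#3 cells. Lpl rose by 1.30 in NFIA and 2.30 in control cells. Rbp4 had the largest difference beside Cyp2e1 and was almost absent elsewhere, with 0.0490 FPKM in control and 0.170 in Δpro#3 cells at day 7. Pparg rose by 1.42 in NFIA and 1.09 in control cells, a difference of 0.33 ± 0.11 (limma adjusted p = 0.0116) that was 0.12 with a pseudocount of 0.1 and then did not pass (limma adjusted p = 0.392). Its change in Δpro#3 cells was -0.11, a difference of 1.53 ± 0.11 that passed the test but not the fold limit. At day 7 Pparg had a mean of 39.5 FPKM in NFIA, 5.95 in control and 8.12 in Δpro#3 cells.

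Differences in the change of mitochondrial genes were smallest for the subunits of oxidative phosphorylation and largest for β-oxidation. The medians for oxidative phosphorylation were 0.99, 0.89 and 0.99 in NFIA, control and Δpro#3 cells, and of 79 subunits 1 had a higher change than in control cells past the 3-fold limit. That was Cox8b (4.21 ± 0.21). Against Δpro#3 cells 1 had a higher and 1 a lower change past that limit. The lower one was Cox6a2, with changes of 4.28 in NFIA and 5.94 in Δpro#3 cells. Without the limit on fold, 36 subunits had a higher and 15 a lower change than in control cells, beside 31.1% and 40.1% of all genes, and 25 had a higher and 14 a lower change than in Δpro#3 cells, beside 29.5% and 33.9%. Of 21 genes of the tricarboxylic acid cycle, 17 had a higher change than in control cells and 16 than in Δpro#3 cells, with 0 and 1 lower, none by more than 3-fold, and the medians of the change were 1.32 in NFIA, 0.66 in control and 0.79 in Δpro#3 cells. Of 33 genes of β-oxidation, 32 had a higher change than in control cells and 33 than in Δpro#3 cells, and none a lower one. The medians of the change were 1.17, 0.09 and 0.31, and 8 genes had a higher change by over 3-fold in each comparison, Acaa1b (4.39 and 4.24) and Acadm (3.23 and 3.38) among them. Over all genes, 4.53% and 3.2% had a higher change by over 3-fold.

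The comparison of sarcomere genes depended on the pseudocount. Against control cells, 13 of 58 had a higher change in NFIA cells and 16 a lower one, but these were 24 and 10 with a pseudocount of 0.1, and 33 and 7 with limma-voom on fragments. Over all genes, 4.53% had a higher and 3.09% a lower change with the pseudocount of 1. On the log2(FPKM + 1) scale, the medians of the change were 3.65 in NFIA, 3.86 in control and 6.04 in Δpro#3 cells. These medians cover 55, 58 and 58 genes, since Myh6, Mybpc2 and Myoz1 stayed under the limit of the test in NFIA cells. Acta1 rose by 8.16 in NFIA and 3.52 in control cells, a difference of 4.64 ± 0.12 (limma adjusted p = 7.53e-15), although its level at day 7 was 727 FPKM in NFIA and 2825 in control cells, which already had 245 at day 0. Genes with a lower change included Mybpc1 (-4.81), Tcap (-4.17) and Cav3 (-3.68), which were called with a pseudocount of 0.1 as well. Csrp3 (-2.93) and Myh8 (-2.90) were not called then, at -0.56 and -0.81, and with limma-voom their differences turned direction, to 1.13 and 1.22. Against Δpro#3 cells, none had a higher change and 38 a lower one, counts which became 1 and 24 with a pseudocount of 0.1 and 5 and 15 with limma-voom. Over all genes, 3.2% had a higher and 2.2% a lower change with the pseudocount of 1. The 38 include Tpm1 and Tpm3, which fell in NFIA cells (-0.52 and -0.73). The difference for Acta1 was 0.015 ± 0.12 (limma adjusted p = 0.922), which did not pass but was 0.57 with a pseudocount of 0.1 (limma adjusted p = 0.00104). That for Ckmt2, the mitochondrial creatine kinase of muscle, was -4.57 ± 0.15 (limma adjusted p = 2.38e-13). Myog rose more than in control cells by 3.09 ± 0.22, from 1.96 FPKM in NFIA and 162 in control cells at day 0, and its levels at day 7 were 199.6, 1275 and 489 FPKM in NFIA, control and Δpro#3 cells. Mef2c rose less than in either (-1.92 and -2.04).

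**Figure D5:**
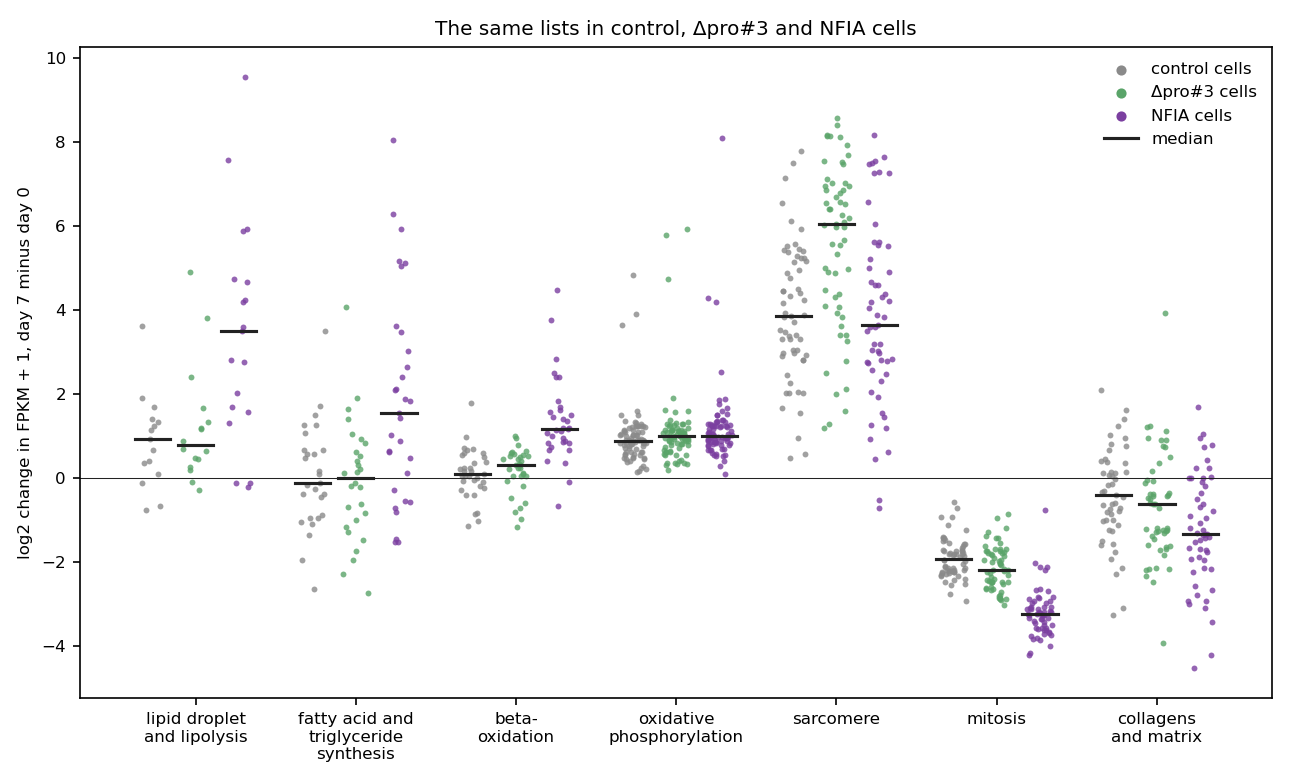
Change from day 0 to day 7 (log2 of FPKM + 1, vertical) of the members of 7 gene lists in control (grey), Δpro#3 (green) and NFIA cells (purple), each with its own tested members and a bar at the median. Medians of oxidative phosphorylation lie at 0.89 to 0.99 in all 3, while those of lipid droplet genes lie at 0.93, 0.78 and 3.50 and those of mitosis genes lie at -1.93, -2.19 and -3.26.

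Mitosis genes fell in all 3 kinds of cells, with 46, 52 and 59 of 60 called lower in control, Δpro#3 and NFIA cells and medians of -1.93, -2.19 and -3.26. The fall was larger in NFIA cells by more than 3-fold for 11 genes against control and 4 against Δpro#3 cells, and for 18 and 8 with a pseudocount of 0.1, 25 and 9 with limma-voom and 6 and 4 under median-ratio scaling. Over all genes, 3.09% and 2.2% had a lower change by more than 3-fold with the pseudocount of 1. Without the limit on fold, 59 of 60 had a lower change in each comparison on the log2(FPKM + 1) scale, beside 40.1% and 33.9% of all genes. Mki67 had 60.1, 18.2 and 24.3 FPKM at day 0 in NFIA, control and Δpro#3 cells and 2.51, 1.51 and 2.10 FPKM at day 7.

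Of 51 matrix genes, 13 had a lower change in NFIA than in control cells and 9 than in Δpro#3 cells, by more than 3-fold, and 2 and 1 a higher one. Over all genes, 3.09% and 2.2% had a lower and 4.53% and 3.2% a higher change, so that the counts of higher changes lie near those shares. Among the 9 was Dcn, decorin, which rose by 1.69 in NFIA and 3.92 in Δpro#3 cells. Postn fell by 4.54 in NFIA cells, and its changes in control and Δpro#3 cells were -0.18 and -1.46. Sfrp2 had changes of -5.89, 0.28 and -3.77 in NFIA, control and Δpro#3 cells, with a difference of -6.17 ± 0.25 against control (limma adjusted p = 1.88e-12). It started from 1484, 7.07 and 196 FPKM and ended at 24.0, 8.57 and 14.0 FPKM, so that the 3 kinds of cells were nearer to each other at day 7 than at day 0.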

How the data were processed

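Polyadenylated RNA was sequenced from 27 samples with a stranded TruSeq kit. The authors aligned reads to mm9 with STAR 2.5.3a, kept uniquely aligned reads, and counted them per gene on the matching strand. The deposited values are FPKM, in which the authors scaled fragment counts to gene length and library size. The gene annotation is not given in the sources used here. Samples were grouped by the labels, and forskolin samples were left out.

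FPKM values were transformed as log2(FPKM + 1). Genes with a mean of at least 0.5 FPKM were tested with limma 3.58.1 (trend, R 4.3.3), 2-sided, with Benjamini-Hochberg adjustment over all genes tested. Genes were called at an adjusted p under 0.05 and a change over 3-fold. Day 7 was compared with day 0 in the 6 NFIA samples, and the difference in change from control and Δpro#3 cells in 18 samples. Whole fragments were recovered from the low values for 100% of values (tolerance 0.01) and served for depth, shares of fragments and floors. Depth sets the precision: at 3 fragments, counting error alone is large, and floors cover counting error only.

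The gene lists and the members were chosen with earlier results of these data known. Genes named are the 12 largest rises and falls among called genes with a mean of at least 1 FPKM and no overlap, up to 4 called rises and 4 falls of each list with the regulators listed for it, the 5 largest differences each way from control and from Δpro#3 cells, and genes the study names. Other list members were named after their values were seen, and some genes that the rule selects are not reported here. Alternatives were a pseudocount of 0.1, no filter, a minimum of 5 FPKM, median-ratio scaling, limma without a trend, limma-voom on recovered fragments, a fit to 18 samples, a replicate block and leaving out each replicate. Tested on simulated data, the day 7 comparison recovered 82% of genes changed 4-fold and 99% of those changed 8-fold among 11950 genes, with 1 unchanged gene among 182 called. The difference recovered 79% and 95% among 11943 genes, with 2 unchanged genes among 176 called. In this simulation every group had the NFIA day 0 means and a fixed spread between replicates. Only 200 genes, none of low level, were changed, fewer than were called in the real samples. The rates hold for those settings and were not tested at the spread and number of changes of the real samples. Gene positions are from GENCODE on NCBIM37, which covered 141 of 143 named genes, and promoter windows from RefSeq on GRCm38.p6. Python 3.11.15, pandas 2.3.3, numpy 2.4.6 and matplotlib 3.10.9 were used.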

Additional observations from a re-analysis of the deposited data

Results flagged for a closer look

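Differences in the day 7 to day 0 change between NFIA cells and the other kinds of cells were tested in 18 samples with limma. Against control cells 562 genes had a higher and 384 a lower change, and against Δpro#3 cells 397 and 273. Groups of 3 samples were too small for a test of single samples that stand apart.

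The largest higher changes against control cells were those of Cyp2e1 (8.68), Rbp4 (7.66), Cmbl (7.01), a hydrolase of liver and intestine, Ifi27l2a (6.66), an interferon-responsive gene, and Ppp1r1a (6.46), an inhibitor of protein phosphatase. The same rule against Δpro#3 cells gave Cyp2e1 (8.21), Rbp4 (7.56), Ephx2 (6.10), Bcan (5.93), a proteoglycan best known from brain, and Cmbl (5.84). Cmbl rose from 5.89 to 389.9 FPKM in NFIA cells, with 5.52 FPKM in control and 35.1 in Δpro#3 cells at day 7. Ifi27l2a rose from 3.15 to 299 FPKM while the interferon-stimulated list had a median of -0.65. Bcan rose from 0.171 to 71.2 FPKM.

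The lower changes against control cells were those of Il1rn (-6.30), the interleukin 1 receptor antagonist, Sfrp2 (-6.17), 4930486L24Rik (-5.69), Myf6 (-5.57) and Omd (-5.49), osteomodulin. Against Δpro#3 cells these were Eln (-5.47), Slpi (-4.76), a protease inhibitor, Ckmt2 (-4.57), Il1rn (-4.56) and Myf6 (-4.41). Il1rn went from 59.1 to 7.11 FPKM in NFIA cells, and at day 7 control cells had 43.4 and Δpro#3 cells 12.6 FPKM. Myf6 reached 0.544 FPKM at day 7 in NFIA cells, 126 in control and 36.0 in Δpro#3 cells, so that the gene stayed low in NFIA cells and was higher in the others. 4930486L24Rik rose by 0.83 in NFIA cells from 0.525 to 1.73 FPKM and reached 127 FPKM in control cells.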

How the results depend on the processing

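No change from day 0 to day 7 of a gene selected by the naming rule turned direction under the alternatives run, and of the list medians that of the basement membrane list, 0.01, changed sign when single replicates were left out (-0.019 to 0.032). With limma-voom on recovered fragments 1017 genes were called higher and 997 lower, instead of 676 and 585, and the differences became 872 and 677 against control and 602 and 446 against Δpro#3 cells, instead of 562, 384, 397 and 273. With a pseudocount of 0.1, 947 genes were called lower (985 higher), and 632 and 443 had a lower change than in control and Δpro#3 cells. A smaller pseudocount shrinks the changes of low genes less by construction, and for limma-voom the cause was not tested. Leaving out single replicates gave 666 to 680 and 578 to 609 genes called higher and lower, 554 to 575 and 369 to 405 differences against control and 383 to 418 and 259 to 291 against Δpro#3 cells. With a minimum of 5 FPKM, 483 and 454 genes were called, since fewer were tested. In all, 99 of 108 alternative counts of genes lay within 1.5 times the count given.

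Of 1944 alternative values of genes selected by the rule, 1937 kept direction and their side of the adjusted p of 0.05, without regard to the 3-fold limit that Cdkn1c and Sgk1 crossed. The exceptions were Nfic under median-ratio scaling (0.0105 became an adjusted p of 0.177) and Myod1, without the filter (adjusted p = 0.0616) and in 5 fits that left out a replicate. Of 1080 alternative values of differences between kinds of cells, 1060 kept direction and side. Those that turned were, with limma-voom, Csrp3 against control (1.13) and Δpro#3 cells (0.16) and Myh8 against control cells (1.22), and Acta1 against Δpro#3 cells, whose difference of 0.015 lay between -0.090 and 0.088 when single replicates were left out. With limma-voom the differences of Cidec (4.89 and 6.68) and Fabp4 (0.53 and 2.28) from control and Δpro#3 cells, of Pparg (0.13) from control cells and of Mybpc1 (-1.57) and Myh8 (-0.49) from Δpro#3 cells did not pass. Of lists, 495 of 504 counts and 190 of 252 medians held. Interferon-stimulated genes called lower went from 3 to 9 with a pseudocount of 0.1, and the median of the brown fat list from 1.62 to 0.21 when members of low level were kept.

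Replicate numbers did not pair the samples: deviations of same-numbered samples correlated at 0.10, 0.020 and 0.026. Blocking on the replicate number led to 676 and 585 genes, and differences of 562 and 384 against control and 397 and 273 against Δpro#3 cells, the same counts as without it, since the balanced design leaves each fold as it was. Fragments per library, 9567769 to 25630237 in NFIA cells, limit what can be said of genes near 0.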

Other observations

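Of the genes called, 503 of 676 that rose and 439 of 585 that fell belong to none of the lists. Those named next were chosen by the size of their change, after their values were seen, and were not tested as groups. Mrap, the partner of melanocortin receptors, had a change of 6.56 in NFIA cells, 1.46 in control and 2.04 in Δpro#3 cells. Cyp2f2, a cytochrome P450 enzyme, had 6.63, 4.00 and 2.14, and Apoe, the lipoprotein ligand, 5.82, 3.63 and 3.14. Sort1, a sorting receptor of GLUT4 vesicles, had 4.89, 2.12 and 2.19. Ffar4, a receptor for long fatty acids, had a change of 5.54 in NFIA cells and was under the limit of the test in the other kinds of cells. Dpt, dermatopontin, had 5.71 in NFIA, -0.36 in control and 0.83 in Δpro#3 cells, and Fam213a 5.72, -0.61 and -0.029.

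Other large rises were found in each kind of cells. Car9, a carbonic anhydrase induced by low oxygen, had changes of 4.78 in NFIA, 3.62 in control and 3.51 in Δpro#3 cells. Lbp, the carrier of lipopolysaccharide, had 4.70, 4.48 and 3.35, and Serpina3n, a secreted protease inhibitor, 5.50, 4.30 and 6.24. Among the genes that fell, Ptn, pleiotrophin, had -3.99, -4.36 and -4.10, and Stmn1, a regulator of microtubules, -3.81, -2.71 and -3.04. Ltbp2, a microfibril protein, had -3.35 in NFIA, -0.29 in control and -1.28 in Δpro#3 cells.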
